A study of Mus musculus with 17 samples.

Results

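Spag6 and 7 further genes of motile cilia, Foxj1, Rsph1, Ccdc153, Tmem212, Dynlrb2, Meig1 and Tekt1, were followed through 17 libraries of mouse hippocampal RNA. They are 8 of the 38355 gene identifiers in the deposited counts, and each of the 8 was found in every library file and passed the filter on low counts in both comparisons. Spag6 was chosen by its measured level, because it was higher at 24 months in these same libraries. The other 7 were picked for their known place in ciliated ependymal cells, to show whether such cells moved together with Spag6.

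The study asked which genes change in the hippocampus as mice age, and each library came from a hand-dissected hippocampus of an untreated wild-type C57BL/6J mouse. The single-end libraries came from mice aged 3 months (3M, 5 libraries) or 24 months (24M, 6 libraries), and the paired-end libraries from mice aged 3 months (3 libraries) or 29 months (29M, 3 libraries). All libraries were made from polyA RNA with a kit that does not mark strand, and each aged group has its own 3M group of the same library type. The sex of the mice is not given in the labels.

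The 3M single-end libraries held 19144461 to 28438296 counts on genes, and the 24M libraries 9213474 to 19756411. With paired ends the totals were 10977976 to 15054972 at 3M and 10991389 to 13563541 at 29M. Levels are given as CPM, counts per 1000000 counts on genes of the same library. The 24M replicates 1 and 4 differed from each other by less than counting noise, with a ratio of observed to binomial variance of 0.406 where the lowest of the other 135 library pairs gave 1.23, so they were averaged and counted as 1 sample (24M n = 5).

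A motile cilium is driven by an axoneme, a ring of microtubule doublets around a central pair of microtubules. Dynein arms on the doublets make them slide, radial spokes connect the doublets to the central pair, and the protein encoded by the Spag6 family is part of the central pair apparatus. In the brain such cilia stand on the ependymal cells that line the ventricles and move cerebrospinal fluid, and Foxj1 is the transcription factor that switches on the genes to build them. The hippocampus borders the lateral ventricle, and the choroid plexus, whose epithelium makes cerebrospinal fluid and also carries cilia, lies inside that ventricle.

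The mouse holds a pair of closely related Spag6 genes, and their names have been exchanged over time. The gene counted here as Spag6 (ENSMUSG00000037708) is protein-coding and lies at chr2:18694032-18750413 on the plus strand of GRCm38, and the study's gene naming gives this identifier the symbol BC061194. Its paralogue Spag6l (ENSMUSG00000022783) lies at chr16:16753016-16829456 on the minus strand, and RefSeq lists Spag6 as an older symbol for it. The coding sequences of the first annotated transcript of Spag6 (1527 bases) and of Spag6l (1521 bases) have 11 exons each and were identical at 1343 of 1521 aligned bases (88.3%). Their first 90 coding bases are shown because reads from such stretches have to be assigned to one gene or the other, with the 10 bases that differ in capitals:
Spag6: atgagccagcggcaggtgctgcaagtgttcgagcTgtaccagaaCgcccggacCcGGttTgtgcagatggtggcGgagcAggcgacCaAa
Spag6l: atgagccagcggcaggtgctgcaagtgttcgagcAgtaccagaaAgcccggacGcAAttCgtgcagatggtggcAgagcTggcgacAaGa

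Of the 3366 different stretches of 50 bases in the annotated transcripts of Spag6, 18 also occurred in Spag6l. A further 191 occurred in Gm20539, a processed transcript on the opposite strand that overlaps the 3′ end of Spag6. Because the libraries do not mark strand, reads of Spag6 and Gm20539 cannot be told apart in that overlap. Gm20539 itself received 18 counts over all 17 libraries, against 709 for Spag6. No 50-base stretch of the other 7 genes was shared with another gene.

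Spag6 was low in every young library. In the 3M single-end group it stood at 1.32, 0.888, 1.23, 1.28 and 1.04 CPM, from 17 to 35 counts per library. At 24M the 6 libraries gave 3.56, 4.53, 4.50, 4.36, 4.61 and 3.80 CPM, from 35 to 89 counts. Every 24M library was above every 3M library, and the spread inside each group was small beside the distance between the groups. The means were 1.15 ± 0.184 CPM at 3M (SD, n = 5) and 4.28 ± 0.372 CPM at 24M (SD, n = 5 samples), and the fitted log2 fold change was 1.90 (SE 0.15), a 3.73-fold higher level. These values chose the gene and are given without a test. Ordered by fold, Spag6 was number 14 of the 210 genes called higher at 24M.

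The paired-end libraries did not serve that choice, and there Spag6 was tested. It stood at 1.33, 1.06 and 1.64 CPM at 3M and at 5.30, 3.91 and 3.47 CPM at 29M, with 16 to 18 counts per young and 43 to 62 per old library. Again every old library was above every young one, as in 9.05% of the genes tested, and 29M replicate 1 was the highest. The mean went from 1.34 ± 0.289 to 4.23 ± 0.956 CPM (SD, n = 3 each). Spag6 rose 3.19-fold (95% interval 2.20 to 4.63, log2 fold change 1.67, SE 0.25) (edgeR quasi-likelihood test, adjusted p = 0.00236 by Benjamini-Hochberg over all 15097 genes tested). Called genes are those with an adjusted p no higher than 0.05 whose log2 fold change is 0.5 or more in size, and 1.34% of the genes tested were called higher at 29M. Spag6 was number 24 by fold among those 202 genes. Whether the change differed between 24M and 29M was not tested.

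**Figure D1:**
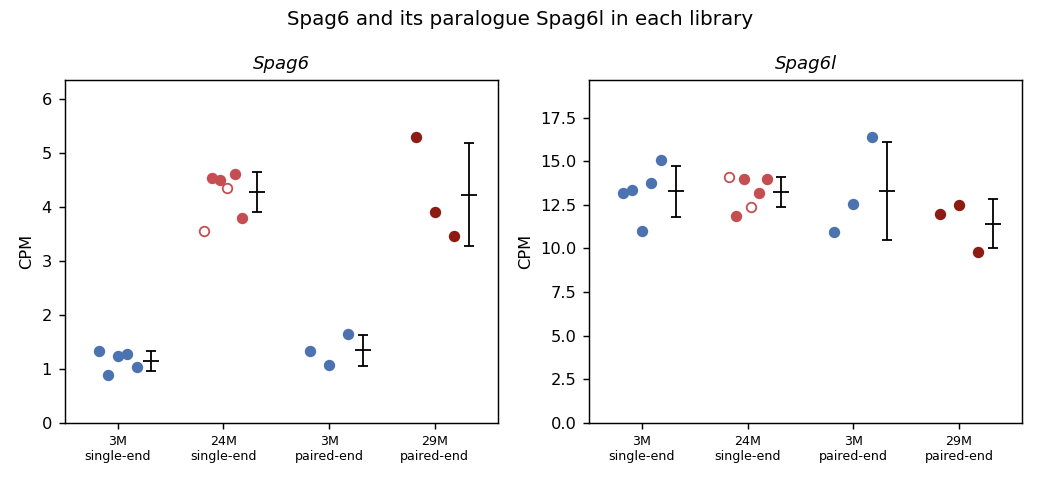
Level of Spag6 (left) and of its paralogue Spag6l (right) in CPM (counts per 1000000, vertical axis from 0) in each of the 17 libraries by group, with the mean and SD of the samples as a bar beside the points and 24M replicates 1 and 4 as open points. Spag6 lies between 0.888 and 1.64 CPM in the 8 young libraries and between 3.47 and 5.30 CPM in the 9 aged ones, while the Spag6l groups overlap.

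The paralogue did not share this change. Spag6l stood at 13.3 ± 1.48 CPM in the 3M single-end group and 13.2 ± 0.870 CPM at 24M (SD, n = 5 each), and its log2 fold change was 0.01 (SE 0.090). In the paired-end libraries it stood at 10.9, 12.6 and 16.4 CPM at 3M and 11.96, 12.5 and 9.81 CPM at 29M. The log2 fold change was -0.21 (95% interval -0.52 to 0.10, edgeR adjusted p = 0.489), so the groups overlapped and an increase of the size seen in Spag6 lay outside the interval. Per kilobase of exon, Spag6l was at 2.91 CPM per kb and Spag6 at 0.339 CPM per kb in the 3M single-end group, and at 2.91 and 1.26 CPM per kb at 24M. Hence Spag6l remained the more abundant gene of the pair at both ages, and at 29M the levels were 2.50 CPM per kb for Spag6l and 1.25 CPM per kb for Spag6.

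Of the 8 genes, Spag6 was the 1 called at 24M, where 1.98% of the 15683 genes tested were called in either direction, and nothing is read from this count since the same contrast chose Spag6. At 29M, Spag6 was likewise the 1 of the 8 that was called, where 1.45% of all genes were. The other 7 genes are described in the order of regulator, axoneme parts and further ependymal genes.

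Foxj1 (chr11:116330704-116335399), the regulator, was the most abundant of them. In the 3M single-end libraries it stood at 22.3, 24.6, 15.4, 35.6 and 32.9 CPM, and at 24M the 6 libraries lay between 18.7 and 24.2 CPM. The young libraries therefore spanned a wider range than the old ones, and the 24M values lay inside that range. The means were 26.2 ± 8.20 and 22.6 ± 1.73 CPM (SD, n = 5 each), a log2 fold change of -0.20 (SE 0.18). In the paired-end libraries Foxj1 stood at 18.3, 24.6 and 21.6 CPM at 3M and 19.7, 24.8 and 21.8 CPM at 29M. Here the groups almost coincided, with a log2 fold change of 0.04 (95% interval -0.20 to 0.28, edgeR adjusted p = 0.889).

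Rsph1 (chr17:31255019-31277383) encodes a radial spoke head protein. It stood at 10.7 ± 3.74 (SD) CPM at 3M and 9.67 CPM at 24M (n = 5 each, 24M samples from 8.40 to 10.6 CPM), with overlapping groups and a log2 fold change of -0.13 (SE 0.21). In the paired-end libraries it stood at 10.2, 11.4 and 11.8 CPM at 3M and 9.57, 9.37 and 7.45 CPM at 29M. All 29M values were below all 3M values, as in 10.5% of the genes tested, but the log2 fold change of -0.34 (95% interval -0.61 to -0.08) did not pass the adjustment in edgeR (unadjusted p = 0.0155, adjusted p = 0.171).

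Dynlrb2 (chr8:116504974-116515915) encodes a dynein light chain of the roadblock type. Its means were 3.80 ± 1.54 CPM at 3M and 3.78 ± 0.176 CPM at 24M (SD, n = 5 each), and 3.52 ± 0.984 CPM at 3M and 2.83 ± 0.495 CPM at 29M (SD, n = 3 each). Tekt1 (chr11:72344722-72362442), a tektin that forms filaments along the microtubule doublets, stood at 6.14 ± 1.54 and 6.77 ± 0.427 CPM in the single-end groups and at 7.08 ± 0.890 and 6.66 ± 0.261 CPM in the paired-end groups. Meig1 (chr2:3409043-3422648), best known for its role in forming the sperm tail, was the least abundant of the 7, at 2.27 ± 0.496 and 2.23 ± 0.655 CPM in the single-end and 2.37 ± 1.07 and 2.04 ± 0.153 CPM in the paired-end groups. Young and aged groups overlapped for all 3 of these genes in both library types. At 24M their log2 fold changes were 0.02 (SE 0.24) for Dynlrb2, 0.15 (SE 0.16) for Tekt1 and 0.0035 (SE 0.21) for Meig1. At 29M they were -0.32 (95% interval -0.83 to 0.19), -0.085 (95% interval -0.37 to 0.20) and -0.25 (95% interval -0.88 to 0.39), with edgeR adjusted p values of 0.525, 0.798 and 0.729.

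Ccdc153 (chr9:44240676-44247306) and Tmem212 (chr3:27866066-27896368) are used as markers of ependymal cells. Ccdc153 stood at 8.003 ± 2.37 CPM at 3M and 6.09 ± 0.724 CPM at 24M (SD, n = 5 each; log2 fold change -0.38, SE 0.18). In the paired-end libraries it stood at 8.51 ± 0.869 CPM at 3M and 7.33 ± 0.834 CPM at 29M (SD, n = 3 each; log2 fold change -0.22, 95% interval -0.51 to 0.076, edgeR adjusted p = 0.444). Both pairs of groups overlapped. Tmem212 stood at 4.74 ± 1.75 CPM at 3M and 3.84 ± 0.575 CPM at 24M (SD, n = 5 each; log2 fold change -0.28, SE 0.22). In the paired-end libraries it stood at 3.90, 5.45 and 3.92 CPM at 3M and 3.08, 3.00 and 3.24 CPM at 29M. The 29M values were all lower, as in 10.5% of the genes tested, but the log2 fold change of -0.52 (95% interval -0.92 to -0.11) did not pass the adjustment in edgeR (unadjusted p = 0.0171, adjusted p = 0.178).

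**Figure D2:**
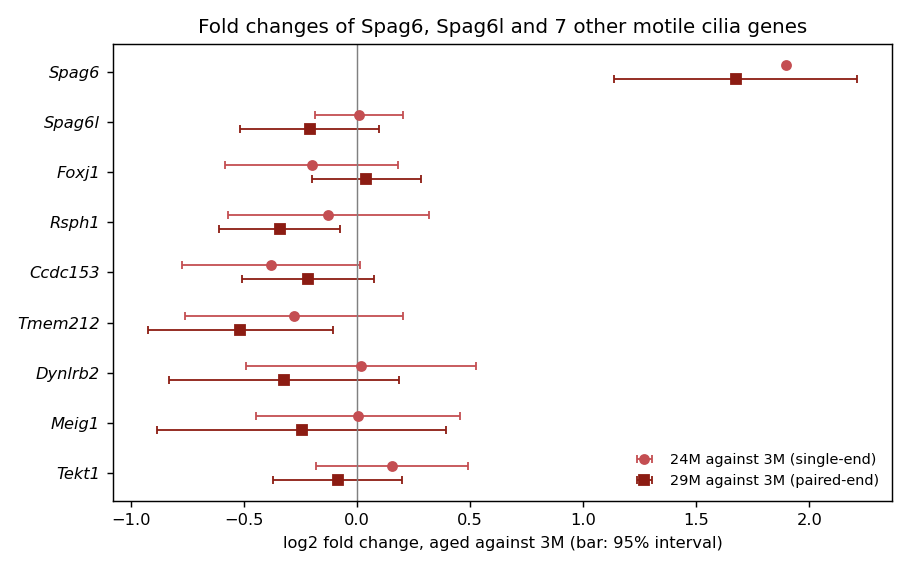
Fitted log2 fold change (horizontal axis) of Spag6, Spag6l and the 7 other motile cilia genes for 24M against 3M (circles, single-end) and 29M against 3M (squares, paired-end), with 95% intervals as bars except for Spag6 at 24M, the contrast that chose it. At 29M the interval of Spag6 starts at 1.14, whereas those of the 7 other genes end at or below 0.39.

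At 29M no interval of the 7 genes reached that of Spag6, since the highest upper bound among them was 0.39 on the log2 scale. At 24M their highest upper bound was 0.53, and Spag6 was chosen there by its change, so nothing is read from that distance. Tissue RNA cannot tell a change in the number of ependymal cells from a change in RNA per cell.

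**Figure D3:**
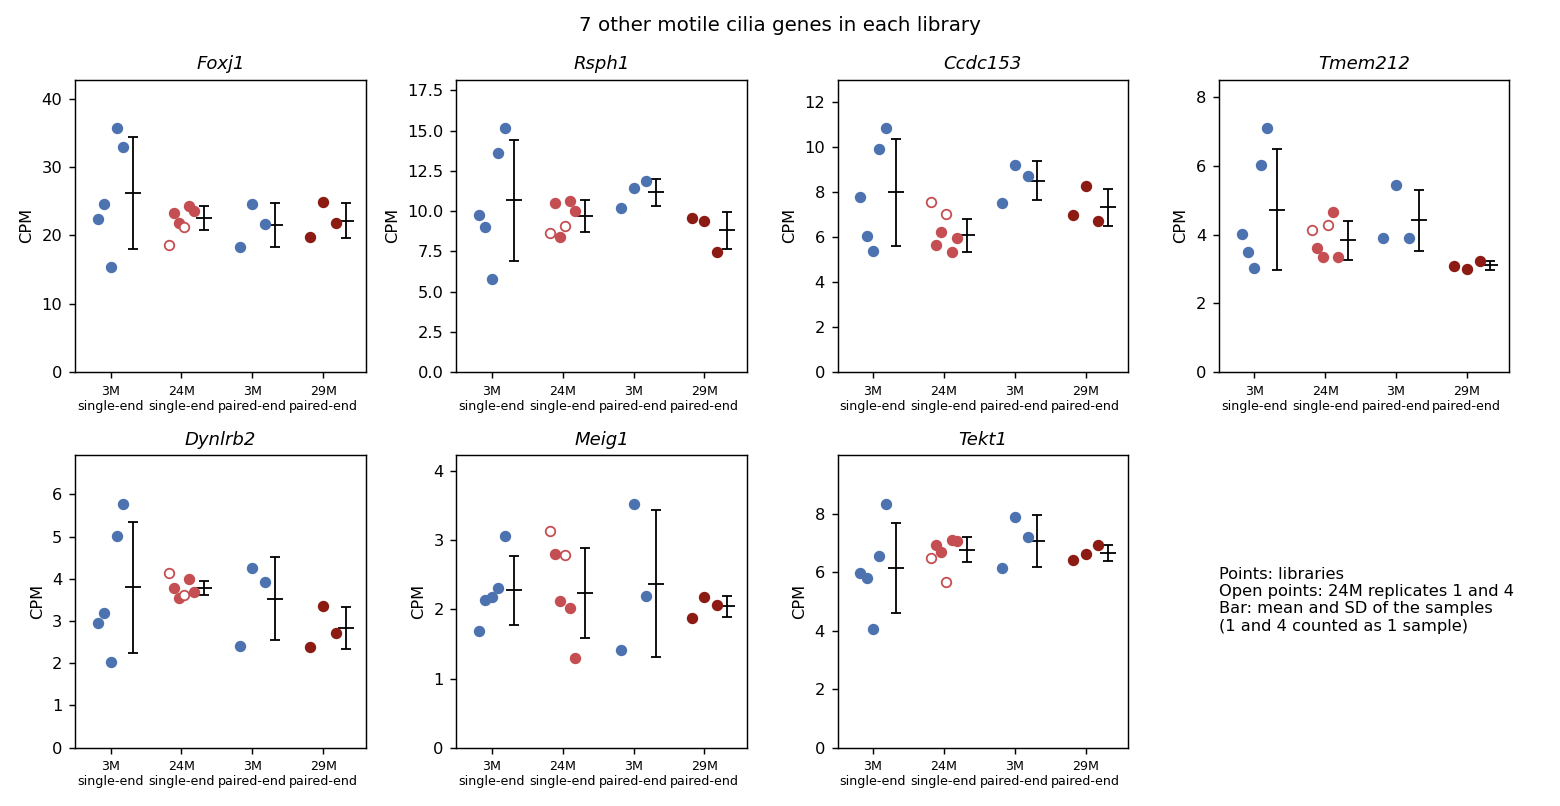
Level in CPM (counts per 1000000, vertical axes from 0) of the 7 other motile cilia genes in each of the 17 libraries by group, with the mean and SD of the samples as a bar beside the points and 24M replicates 1 and 4 as open points. The single-end 3M libraries spread most for every gene except Meig1, from 15.4 to 35.6 CPM for Foxj1, and aged and young groups overlap except for Rsph1 and Tmem212 at 29M. All 29M libraries lay below all 3M libraries in 10.5% of the genes tested.

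Ordered by level per kilobase of exon, the 3M single-end group gave Foxj1 at 9.98 ± 3.13, Rsph1 at 7.77 ± 2.73, Dynlrb2 at 6.83 ± 2.78, Tmem212 at 6.61 ± 2.45, Ccdc153 at 3.93 ± 1.16, Tekt1 at 3.79 ± 0.9503, Meig1 at 2.06 ± 0.450 and Spag6 at 0.339 ± 0.0541 CPM per kb (SD, n = 5). Neighbours among the first 4 of these genes, and Ccdc153 and Tekt1, did not differ beyond their SD. Spag6 had the lowest mean level of the 8 in each of the 4 groups. At 24M its level of 1.26 CPM per kb came near that of Meig1 at 2.03 ± 0.594 CPM per kb (SD, n = 5), and Meig1 in 24M replicate 6, at 1.18 CPM per kb, was below the Spag6 mean.

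To see whether other parts of the cilium followed Spag6, 7 lists with 120 genes in the files were read, namely regulators, radial spokes, central pair, axonemal dyneins, dynein assembly and docking factors, tektins with other inner microtubule proteins, and further ependymal genes. At 24M, 114 of the 120 were tested, 34 had a log2 fold change above 0 and 80 below 0, and the median was -0.14. By edgeR, 2 were called higher, Spag6 and Gmnc, and 0 lower. The same contrast chose Spag6, so nothing is read from its call. Without the 8 genes, 106 list genes were tested at 24M, and edgeR called 1 higher and 0 lower. At 29M the fit held 109 of them, 38 above 0 and 71 below 0, and the median was -0.079. Here Spag6 was called higher and 0 genes lower. As background, 1.34% of all tested genes were called higher and 0.638% lower at 24M, 49.2% had a log2 fold change above 0 at 24M, and 0.113% were called lower and 49.4% had one above 0 at 29M. DESeq2 called the same numbers of list genes at both ages. Leaving the fold threshold aside, edgeR gave 5 list genes at 24M and 1 at 29M an adjusted p of at most 0.05. Without the 8 genes these numbers were 4 and 0. Among all genes tested, 875 of 15683 at 24M and 451 of 15097 at 29M had such a value. An unadjusted edgeR p under 0.05 was found for 18 list genes at 24M and 15 at 29M, beside 26.1% and 17.3% of all genes. Without the 8 genes it was found for 17 and 12.

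Within the central pair list, which holds Spag6 and Spag6l, 13 genes were tested at 24M, their median log2 fold change was 0.0084, and the highest apart from Spag6 was 0.25. At 29M the median over 12 genes was 0.038, and the highest apart from Spag6 was 0.19. Cfap54, which encodes a central pair protein and has the highest CPM of this list, Spag6l and Spef1 were not called at either age. Spef1, which bundles central microtubules, was lower at 24M with an adjusted p of 0.0407 in edgeR but a log2 fold change of -0.33 (SE 0.084), smaller than the threshold, and stood at -0.080 at 29M.

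The axonemal dynein list had 4 of 20 genes above 0 at 24M (median -0.20) and 7 of 20 at 29M (median -0.087), and 0 were called by edgeR or DESeq2 (unadjusted edgeR p under 0.05 for 4 and 5 of them). Dnah1 and Dnah5, dynein heavy chains of inner and outer arms, stood lower at 24M with adjusted p values of 0.0119 and 0.0245 in edgeR, but with log2 fold changes of -0.47 and -0.35 they stayed inside the fold threshold. Without 3M single-end replicate 5, Dnah1 passed it (log2 fold change -0.51, adjusted p = 0.00379, edgeR). For Dnah1 the means were 17.7 CPM at 3M and 12.7 CPM at 24M, and 14.6 and 12.1 CPM at 3M and 29M (adjusted p = 0.145, edgeR). Medians of the remaining lists at 24M were -0.086 for regulators, -0.10 for radial spokes, -0.19 for dynein assembly and docking, -0.14 for tektins and -0.25 for further ependymal genes. At 29M those medians were -0.048, -0.097, -0.056, -0.085 and -0.20.

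Gmnc, a coiled-coil regulator upstream of Foxj1 in the programme for multiciliated cells, was the 1 further list gene called. It stood at 4.01, 5.22, 3.59, 4.66 and 4.93 CPM at 3M and at 6.77, 8.69, 8.20, 5.31, 5.29 and 6.95 CPM in the 24M libraries. All 24M libraries lay above all 3M libraries, as in 2.94% of the genes tested, and replicates 4 and 5 only just did. The log2 fold change was 0.66 (SE 0.15, adjusted p = 0.0306 in edgeR). The call was lost in 6 of the 11 fits that left out a library, without 24M replicate 2 (adjusted p = 0.0878), 3 (0.0725) or 6 (0.0509) and without 3M single-end replicate 1 (0.0737), 3 (0.0562) or 4 (0.0519). At 29M Gmnc had a log2 fold change of -0.016 (95% interval -0.39 to 0.36, edgeR adjusted p = 0.976).

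**Figure D4:**
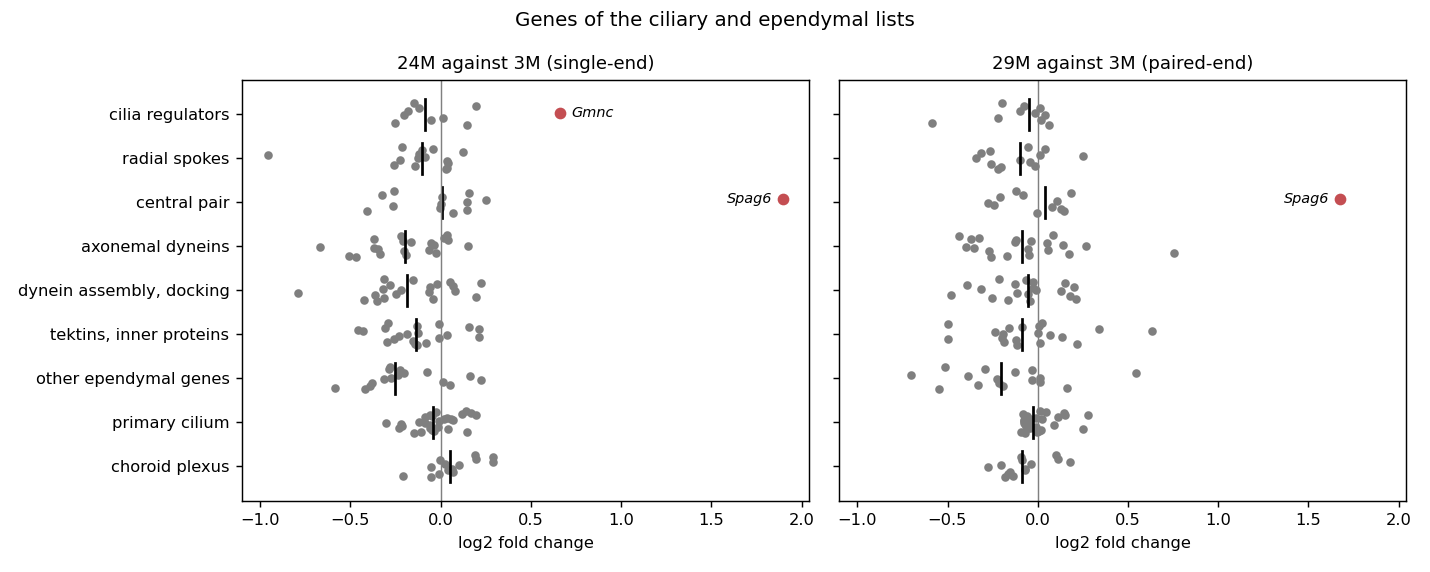
Fitted log2 fold change (horizontal axis) of every tested gene of 9 lists (rows) for 24M against 3M (left) and 29M against 3M (right), with called genes in red and named and the median of each list as a vertical bar. Spag6 lies at 1.67 at 29M and at 1.90 at 24M, the contrast that chose it. Gmnc is called at 24M with 0.66, and the medians of the lists lie between -0.25 and 0.052.

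Primary cilia, the single immotile cilia that neurons and astrocytes carry, share the transport machinery of motile cilia and were read from a list of 28 genes. All 28 were tested at both ages and 0 were called, with medians of -0.042 at 24M and -0.025 at 29M. DESeq2 also called 0, and edgeR gave 6 of them at 24M and 3 at 29M an unadjusted p under 0.05. Leaving the fold threshold aside, 2 of them had an adjusted p of at most 0.05 at 24M and 1 at 29M, beside 875 of all 15683 genes tested at 24M and 451 of 15097 at 29M. Ift122 and Ift172, which encode parts of the transport machinery inside cilia, were lower at 24M (log2 fold changes -0.22 and -0.22, SE 0.051 and 0.057, adjusted p = 0.0319 and 0.041 in edgeR). Pkd2, a cation channel of the primary cilium, was higher at 29M (log2 fold change 0.28, SE 0.059, adjusted p = 0.0205 in edgeR), with means of 54.7 and 66.0 CPM.

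Ependymal genes varied together between libraries of the same group. After subtracting the mean log2 CPM of each group, the 21 pairs among the 7 genes had Pearson correlations between 0.21 and 0.93 over the 16 samples, with a median of 0.78. For all of them except Meig1 the spread was widest in the 3M single-end group. Its replicate 3 was the lowest of its group for Foxj1, Rsph1, Ccdc153, Tmem212, Dynlrb2 and Tekt1, and replicates 4 and 5 were the highest. Spag6 did not follow this order. In replicates 3, 4 and 5 it stood at 1.23, 1.28 and 1.04 CPM, whereas Dynlrb2 stood at 2.04, 5.02 and 5.77 CPM and Rsph1 at 5.80, 13.6 and 15.1 CPM.

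Against Foxj1, within-group deviations of Dynlrb2 had r = 0.93 (adjusted p = 0.00356; Spearman rho 0.88, adjusted p = 0.00464), those of Tekt1 r = 0.89 (adjusted p = 0.00356; rho 0.96, adjusted p = 8e-05, from the smallest p these permutations can give) and those of Rsph1 r = 0.88 (adjusted p = 0.0169; rho 0.74, adjusted p = 0.038), by two-sided permutation tests within groups with 100000 permutations and adjustment over 8 relations. For Spag6, r was -0.22 (permutation adjusted p = 0.504; rho -0.21, adjusted p = 0.514), and for Spag6l it was 0.50 (permutation adjusted p = 0.0798; rho 0.41, adjusted p = 0.204). Leaving out 3M single-end replicates 3 and 4, the samples farthest from the median of Foxj1, gave 0.89 for Dynlrb2, 0.89 for Tekt1, 0.72 for Rsph1, -0.33 for Spag6 and 0.38 for Spag6l. Within the single-end samples r was 0.94, 0.89, 0.95, -0.12 and 0.70 in the same order (n = 10), and within the paired-end samples 0.93, 0.87, 0.34, -0.52 and 0.34 (n = 6). Tmem212 (r = 0.78, permutation adjusted p = 0.0349) passed by Pearson's r but not by Spearman's rho (0.58, permutation adjusted p = 0.113), and Ccdc153 (r = 0.74, permutation adjusted p = 0.0661) and Meig1 (r = 0.30, permutation adjusted p = 0.236) did not pass. Without 3M single-end replicates 3 and 4, r was 0.65 for Tmem212, 0.52 for Ccdc153 and 0.49 for Meig1. In the same order r was 0.81, 0.72 and 0.16 within the single-end and 0.58, 0.89 and 0.81 within the paired-end samples.

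**Figure D5:**
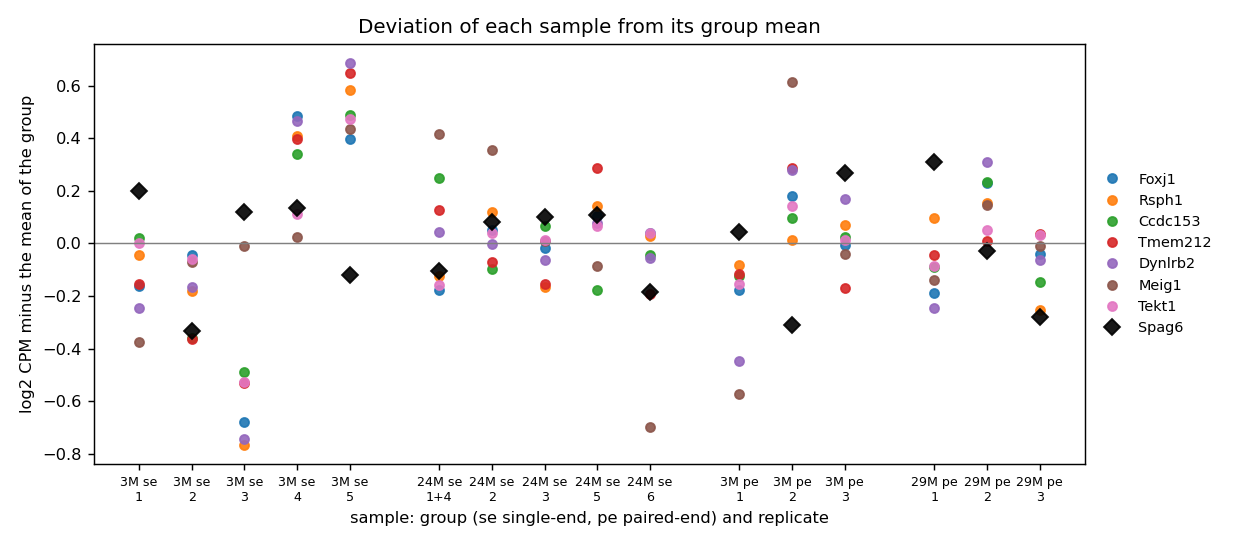
Deviation of each of the 16 samples from the mean of its group in log2 CPM (vertical axis) for Spag6 (black diamonds) and the 7 other motile cilia genes (coloured points), by group and replicate (horizontal axis). In 3M single-end replicate 3 all 7 lie below 0 and in replicates 4 and 5 all 7 lie above 0, while Spag6 lies above 0 in replicates 3 and 4 and below 0 in replicate 5.

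Among 14585 genes with a mean of at least 1 CPM, those outside the lists whose deviations were most like the mean of the 7 included Car14 (r = 0.94), Dnajc19 (0.93), Prdm16 (0.92), Pla2g5 (0.92), Hist1h2bc (0.92), Ezr (0.92), Ubxn10 (0.91), Prr32 (0.91) and Fap (0.91), over 16 samples. Spag6 had r = -0.17 with it and Spag6l r = 0.51. The genes most like Spag6 itself were Gm26910 (r = 0.85), Acta1 (0.83), Polr3c (0.83), Ubtd1 (0.82) and Mrps25 (0.81). These values describe 16 samples that differ in library depth, and carry no test.

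Markers of neighbouring tissue moved with the ependymal genes in the young single-end group. The 14 choroid plexus markers, led by Ttr, the transthyretin gene, summed to 7664, 7849, 3212, 12583 and 13786 CPM in 3M single-end replicates 1 to 5, so that replicate 3 was lowest and replicates 4 and 5 highest, as for the ependymal genes. None of the 14 was at 0 in any library. In the 24M samples the sum lay between 7380 and 11661 CPM, and in the paired-end libraries between 5232 and 10016 CPM at 3M and between 6322 and 9022 CPM at 29M. By edgeR and by DESeq2 0 of the 14 were called at either age, with medians of 0.052 at 24M and -0.090 at 29M, and 0 had an unadjusted p under 0.05. Their part in the spread of the ependymal genes was not tested. For Spag6 the log2 fold change at 24M was 1.93 without 3M single-end replicate 3, 1.93 without replicate 4 and 1.86 without replicate 5, against 1.90 with all of them. Nothing is read from these values, since the same contrast chose Spag6.

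The labelled tissue was read from 10 hippocampal genes, led by Zbtb20, which summed to 1248 to 1681 CPM, and from 12 striatal genes, led by Ppp1r1b, at 237 to 740 CPM. None of these was at 0 in any library. The striatal sum was highest, at 740 CPM, in 3M single-end replicate 4, which was also high for the ependymal genes. The median of the striatal genes on the log2 scale was -0.54 at 24M and -0.059 at 29M. Of the hippocampal genes 0 were called at either age by edgeR or DESeq2, and edgeR gave 3 at 24M and 1 at 29M an unadjusted p under 0.05. The gene at 29M was Wfs1, whose log2 fold change of -0.28 (SE 0.053, adjusted p = 0.0124 in edgeR) was inside the fold threshold.

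In the genome, 8 other genes lie within 100 kb of Spag6, and 4 of them were tested at 24M, namely Bmi1, Commd3, Pip4k2a and Carlr. Bmi1 and Commd3 were picked after their values were seen, and the results of Pip4k2a and Carlr are not given here. As background, 1.34% of all genes tested were called higher at 24M. Bmi1, a Polycomb gene on the same strand 7403 bases away, stood at 29.9, 37.7, 38.9, 39.3 and 53.1 CPM at 3M and at 65.6, 61.3, 63.8, 55.3, 52.5 and 53.8 CPM in the 24M libraries. The groups overlapped through 3M single-end replicate 5. Its log2 fold change was 0.56 (SE 0.12, adjusted p = 0.022 in edgeR), a call that was lost without 24M replicate 2 (adjusted p = 0.0649) or 3 (0.0521), without both libraries of the averaged pair (0.0569), and without 3M single-end replicate 1, where the log2 fold change was 0.47. At 29M it was 0.073 (95% interval -0.041 to 0.19, edgeR adjusted p = 0.52). Commd3, which lies 17801 bases from Spag6 beyond Bmi1, was not called at either age, with log2 fold changes of 0.17 and -0.054.

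Promoters were read from RefSeq windows of 300 bases on GRCm38.p6, from 250 before to 50 after a start. Such windows matched Spag6, Spag6l, Ccdc153, Tmem212, Dynlrb2, Meig1 and Tekt1. The RFX factors that act with Foxj1 in ciliated cells bind X-box sites, of which GTTGCC is a core part, and this motif was chosen after the windows had been seen. On both strands it occurred in 12.5% of all 32851 windows. It is shown in capitals (GGCAAC where it lies on the other strand) in the 30 bases around each match before a start, in the direction of the gene:
Spag6, chr2:18698973-18699002: cgattccgactgGTTGCCcaggagtgtggg
Dynlrb2, chr8:116504952-116504981: acttcctgcctgGTTGCCtagcaacggggg
Ccdc153, chr9:44240513-44240542: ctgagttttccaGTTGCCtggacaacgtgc
Tekt1, chr11:72361900-72361929: tcttctaactagGGCAACgttgcgtccgtc
Tekt1, chr11:72361880-72361909: tgcgtccgtccgGTTGCCatagagaccgca

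The match of Spag6 lies from 37 to 32 bases before the RefSeq start, which is downstream of the first base of the gene in the annotation used for the counts' names. Both Tekt1 matches, from 35 to 30 and from 15 to 10 bases before its RefSeq start, likewise lie inside the gene in that annotation. In Spag6l the motif lies after the start, and the windows of Tmem212 and Meig1 hold none. A longer form of the X-box, with both arms at a fixed distance, was also searched and was in 0.804% of all windows, and the forkhead motif TGTTTAC was in 3.65%. Neither was in the windows of these genes, which says only that these letters at this spacing are not there, and other distances between the arms were not searched. A match is a description of letters and not a measured site.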

How the data were processed

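The authors aligned reads (50 bases single-end, 100 bases paired-end) with STAR 2.3.0 to GRCm38.p2, per the submitters' processing notes, and counted them per gene with HTSeq. The deposited values are whole-number counts without normalization. For the annotation used in counting, the name is not given in sources used here. Library sizes left out the lines that name no gene (no-feature reads came to 11.2% to 18.2% of the sum of counts on genes, no-feature and ambiguous reads). Of 38355 identifiers, 36602 were named from GENCODE M21, which also gave positions and exon lengths.

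In R 4.3.3, the quasi-likelihood test of edgeR 4.0.16 with TMM factors and filterByExpr set each aged group against the 3M group of its library type, with Benjamini-Hochberg adjustment over all genes tested. Each standard error is the size of the log2 fold change over the square root of F. The p values measure the spread between these mice. The rounded mean of 24M replicates 1 and 4 entered as 1 sample. On simulated data with known changes, the 24M fit recovered 99 of 100 genes changed 2-fold and 99 of 100 changed 4-fold among 15558, with 5 false calls, and the 29M fit 87 and 99 of 100 among 14945, with 10 false calls. The simulation gave every gene the same dispersion and changed only genes above 1 CPM. Recovery was therefore not measured for genes that spread as widely as Foxj1 or Dynlrb2 did in the 3M single-end group.

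The genes, the gene lists and the tests were chosen with earlier results of these data known. Named are the 8 genes and Spag6l, and from each list the called genes, up to 5 genes with the smallest p and the 3 most abundant. Further named are the genes among the 10 outside the lists most like the mean of the 7, and the 5 most like Spag6. The results of some single genes are left out here. The neighbours Bmi1, Commd3 and Gm20539 were chosen after their values were seen. Likeness used log2 CPM with a prior count of 2.

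Alternatives were DESeq2 1.42.0, its size factors in edgeR, no filter, a filter of at least 1 CPM, all 4 groups in 1 fit, the replicate number as a block, the 24M pair kept apart or left out, and each library left out.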

Additional observations from a re-analysis of the deposited data

Results flagged for a closer look

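Of 40 groups of samples tested for a sample far from the others, where chance gives about 1 in 20 or 2 in all, 2 had such a sample. In 3M single-end replicate 4 the 12 striatal genes summed to 740 CPM against 237 to 305 CPM in the other 4 libraries, a gap of 0.864 of the whole range. In 24M replicate 3 the 10 hippocampal genes summed to 1681 CPM against 1397 to 1464 CPM in the other samples, a gap of 0.764 of the range. Neither Spag6 nor the 7 other motile cilia genes had such a sample in a group of 5.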

How the results depend on the processing

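At 29M Spag6 was called higher under every alternative run, with log2 fold changes of 1.49 to 1.82, and it was the 1 of the 8 genes called. At 24M, the contrast that chose it, its log2 fold change lay between 1.81 and 1.98, from which nothing is read. Counts over all genes moved more. At 24M, all 4 groups in 1 fit gave 345 genes higher and 173 lower, leaving out both libraries of the averaged pair 112 and 51, and the replicate block 58 and 25. Leaving out 1 library gave 91 to 394 higher and 28 to 174 lower. At 29M, all 4 groups in 1 fit gave 83 and 3, no filter on low counts 368 and 73, and leaving out 1 library 113 to 207 and 7 to 27. Of the list genes, 1 was called at 24M with the replicate block and 1 to 3 when 1 library was left out. Without 3M single-end replicate 3 the called genes besides Spag6 were Rsph14 (-1.21) and Dnaaf1 (-0.99), both lower, and without 3M single-end replicate 5 Dnah1 was added (-0.51). At 29M, 2 were called without the filter, with Mlf1 (-0.70) added. The causes were not tested.

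Of the values near 0, Rsph1 at 24M turned to 0.025 with the replicate block, and Meig1 at 24M to -0.10 without the averaged pair and -0.0043 without the filter. When 1 library was left out, log2 fold changes at 24M lay between -0.054 and 0.054 for Spag6l, -0.29 and 0.032 for Rsph1, -0.15 and 0.22 for Dynlrb2, and -0.087 and 0.13 for Meig1. At 29M they lay between -0.073 and 0.15 for Foxj1, -0.49 and 0.19 for Meig1, -0.16 and 0.0015 for Tekt1, and -0.16 and 0.11 for Gmnc. Without a change of sign, 24M values ran from -0.35 to -0.065 for Foxj1 and from -0.41 to -0.089 for Tmem212. Those of Ccdc153 ran from -0.50 to -0.25 and those of Tekt1 from 0.030 to 0.29. At 29M Dynlrb2 ran from -0.52 to -0.15, Rsph1 from -0.42 to -0.21 and Tmem212 from -0.60 to -0.33. Ccdc153 ran there from -0.34 to -0.14 and Spag6l from -0.31 to -0.053. None of these was called.

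The replicate numbers were not taken to pair the samples: correlations of same-numbered deviations were -0.13, 0.072, 0.015 and -0.24 at 24M and -0.16, -0.079 and 0.15 at 29M. So few values cannot tell whether same-numbered samples were handled together. With the block Gmnc (log2 fold change 0.67, adjusted p = 0.154) and Bmi1 (0.61, adjusted p = 0.128) were not called at 24M in edgeR. Spag6 rests on 16 to 35 counts per young library, which limits the precision of its fold.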
